A study of Mus musculus with 4 samples.

Results

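The genes described here are 9 regulators and markers of the osteoblast lineage: the transcription factor genes Runx2, Dlx5, Dlx3 and Msx2, the matrix and mineralization genes Alpl, Ibsp and Smpd3, and the genes of the hormone and decoy receptors Pth1r and Tnfrsf11b. They were chosen by name, with earlier results of these data known. A probe stood for a gene where its RefSeq accession mapped to that symbol. All 9 were found, among 21154 genes that could be named on the array. The samples were mesenchymal stromal cells (MSCs) of the mouse, in primary culture at passage 5, and their total RNA was measured on 4 one-colour Agilent expression arrays. The cells of 1 array carried a control short hairpin RNA (shControl), delivered like the others by a retroviral system. The cells of the other 3 arrays carried 1 of 3 hairpins with different target sequences in Islr (labelled shlSLR no.1, no.2 and no.3, here hairpins 1, 2 and 3). Islr encodes Meflin, a cell surface and secreted protein of stromal cells. The labels name no differentiation treatment, tissue of origin, strain or age, nor whether 1 preparation of cells gave all 4 cultures, so the 3 hairpins are separate samples whose spread may be partly technical.

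MSCs can become osteoblasts, the cells that build bone. Runx2 encodes the master transcription factor of that lineage. The homeodomain factors encoded by Dlx5 and Dlx3 bind regulatory regions of osteoblast genes and can activate them, and that encoded by Msx2 can oppose them there. Sp7, which acts after Runx2, and Bglap, the osteocalcin gene, mark later stages. Alkaline phosphatase (Alpl) removes the pyrophosphate that blocks mineral growth, bone sialoprotein (Ibsp) is a mineral-binding matrix protein, and neutral sphingomyelinase 2 (Smpd3) is needed for normal bone mineralization. Osteoblasts answer parathyroid hormone through its receptor (Pth1r). Their osteoprotegerin (Tnfrsf11b) is a decoy receptor that keeps the ligand RANKL (Tnfsf11) from its receptor on osteoclast precursors.

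Promoter sequence was found in RefSeq tables (mouse build GRCm38.p6) for 5 of the 9 genes. The 250 bases before the listed start are shown for Runx2, Msx2 and Ibsp, the genes whose window held a match to the letters below. No listed window of Alpl or Pth1r held a match, and these are not shown. The arrays measured Runx2, Msx2, Alpl and Pth1r well above background and Ibsp on no array. Capitals mark matches on either strand to ACCACA, the core letters bound by Runx proteins, and to TAATT, a core bound by homeodomain proteins. The Runx2 window is chr17:44814628-44814877 on the minus strand, that of Msx2 is chr13:53472781-53473030 on the minus strand, and that of Ibsp is chr5:104299037-104299286 on the plus strand.
Runx2: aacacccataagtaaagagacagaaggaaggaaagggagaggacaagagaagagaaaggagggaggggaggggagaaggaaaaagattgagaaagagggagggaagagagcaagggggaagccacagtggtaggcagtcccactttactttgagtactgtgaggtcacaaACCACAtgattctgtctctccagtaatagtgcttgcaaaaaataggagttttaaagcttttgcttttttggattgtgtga
Msx2: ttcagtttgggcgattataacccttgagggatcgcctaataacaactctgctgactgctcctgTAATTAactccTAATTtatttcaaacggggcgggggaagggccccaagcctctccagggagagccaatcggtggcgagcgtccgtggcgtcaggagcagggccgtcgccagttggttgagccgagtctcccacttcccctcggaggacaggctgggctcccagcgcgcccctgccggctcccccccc
Ibsp: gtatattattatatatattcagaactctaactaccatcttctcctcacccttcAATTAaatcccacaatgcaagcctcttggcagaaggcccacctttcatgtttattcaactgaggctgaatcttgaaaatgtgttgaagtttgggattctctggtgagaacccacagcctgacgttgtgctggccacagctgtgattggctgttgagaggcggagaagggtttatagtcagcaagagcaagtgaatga
The Runx2 window held 1 match to ACCACA, 80 bases before the start, with 2 more in the 50 bases after the start, and none to TAATT. The Msx2 window held 3 matches to TAATT, of which 2 overlap as TAATTA, and none to ACCACA. Ibsp had 1 match to TAATT and none to ACCACA. Of the 32851 windows of this length in the table, 14% held ACCACA and 25% held TAATT. A match describes the letters and shows no binding.

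On each array 49.4% to 53.8% of 59305 features were called well above background, and the 75th percentile of the processed signal lay between 414.7 and 442.5. For the target Islr the control array read a signal of 454, while hairpin 2 read 70.5, which is 6.33-fold lower after scaling. It was not well above background on hairpins 1 and 3 (signals of 11.0 and 3.44). Counted against the lowest signal called above background on the array, it was lower by at least 20.5-fold for hairpin 1 and at least 29.6-fold for hairpin 3. That lowest signal is not this probe's own limit. The cells carried MSC markers: of 14 such genes, 13 or 14 were above background on an array. Of 10 haematopoietic markers, the same 5 were above background on all 4 arrays (Cd68, Cd14, Itgam, Csf1r and Cd3e), while the defining genes Ptprc and Adgre1 were on none. None of 5 muscle genes was above background. Of 7 osteoclast markers, 5 were above background on all 4 arrays (Acp5, Ctsk, Ocstamp, Oscar and Tnfrsf11a), while Calcr and Dcstamp were on none. Of 6 endothelial markers, Kdr (signals of 3251 to 3532) and Pecam1 were above background on all 4 arrays and Vwf on hairpins 1 and 3, while Cdh5, Tek and Tie1 were on none. Of 7 adipocyte markers, Pparg and Fabp4 were above background on all 4 arrays and Cfd on the control and hairpin 3, while Adipoq, Plin1, Lep and Cidec were on none. Of 7 chondrocyte markers, Sox9 and Col11a1 were above background on all 4 arrays, Acan on 3 and Col2a1 and Col9a1 on hairpin 3 alone, while Matn1 and Matn3 were on none. The summed scaled signal of the 14 MSC markers, which weighs the brightest genes most, was 506.7 on the control array and 393.2 to 482.9 on the hairpins. Of the 13 MSC markers kept by the filter given below, 4 were higher and 4 lower on all 3 hairpins, beside 27.6% and 24.6% of all genes. That of the 10 haematopoietic markers was 27.8 on the control array and 19.0 to 29.5 on the hairpins, and that of the 7 osteoclast markers was 1.33 and 1.11 to 1.32. The endothelial sum was 8.21 on the control array and 7.67 to 8.35 on the hairpins. The adipocyte sum was higher on each hairpin, at 5.39, 3.27 and 8.39 for hairpins 1 to 3 against 2.27 for the control. Its brightest gene was Pparg, the adipocyte master regulator, with signals of 765, 2027, 1078 and 3040 (limma adjusted p = 0.964). The log2 differences of Fabp4 from the control were -0.10, 0.72 and 1.54 on hairpins 1 to 3. Those of Cfd, dim on hairpins 1 and 2, were -0.30, -2.23 and -0.19. The chondrocyte sum was also higher on each hairpin, at 3.13, 2.55 and 2.77 against 2.12. The part of these other cell types in the results below was not tested. In such bulk RNA, fewer cells of a type and less RNA per cell cannot be told apart.

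The comparison of the Islr hairpins with the control asked whether MSCs with less Islr RNA carry more or less RNA of bone lineage genes. None of the 7 genes that could be tested was at least 2-fold from the control in one direction on all 3 hairpins, and none passed the test. The target Islr did not pass it either, at a mean log2 difference of -4.98 ± 2.19 with its dim signals taken as they stand. Not passing therefore does not show that a gene was unchanged. Dlx3 was lower on each hairpin, by 1.10-fold to 1.43-fold, and Msx2 was slightly higher on each, by 1.04-fold to 1.22-fold. Of all genes tested, 24.6% were lower and 27.6% higher on all 3 hairpins. Msx2 exceeded the estimated error of the spots compared on hairpin 2 alone, and it lost its one sign in some alternative processings. For Dlx3, hairpin 1 lay within that error. Smpd3 and Tnfrsf11b varied most, with hairpins far apart from one another. Ibsp and Dlx5 were not well above background on any array. Differences below are log2 of the scaled signal, hairpin minus control, with the mean ± SD over 3 hairpins (n = 3). Each signal is 1 spot. The error after a signal is the scanner software's own estimate for that spot, which covers the spot and not the culture.

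A gene was tested where either the control array or all 3 hairpin arrays read its probe well above background, which 7 of the 9 genes met. A gene above background on the control array alone was thus kept, while one above it on only some hairpins was not. The shares of all genes called lower or higher are shaped by this filter. All 4 arrays read the probe well above background for 6 of the 7 and for 93.7% of all genes kept. Over the 13567 genes kept, limma with Benjamini-Hochberg adjustment called 0.346%, all lower, and it called 0 of the 7 (adjusted p from 0.964 to 0.998). At an unadjusted p under 0.05, limma gave 4.83% of all genes and 0 of the 7. At least 2-fold in one direction on all 3 hairpins, a rule of size with no test, was met by 1.92% of all genes and by 0 of the 7. The sign was the same on all 3 hairpins for 52.2% of all genes and for 2 of the 7, Dlx3 and Msx2. The 3 differences of a gene share 1 control array. With 1 array against 3, an exact two-sided permutation test of a single gene cannot go below p = 0.25, so none is given. The median difference of the 7 genes was 0.09, beside 0.01 over all genes kept, and their median SD between hairpins was 0.32, beside 0.20.

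**Figure D1:**
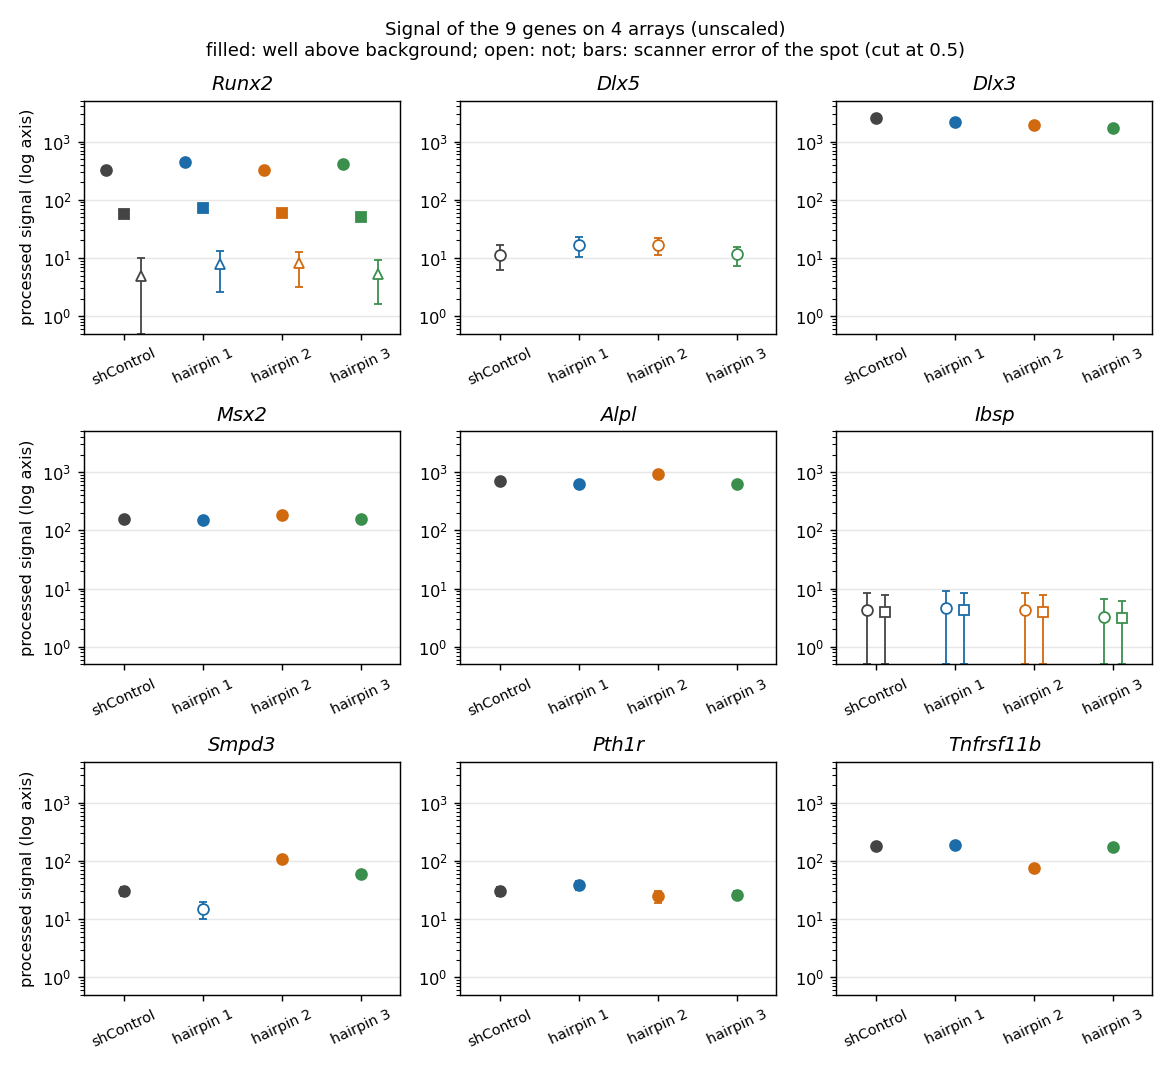
Processed signal (log axis, not scaled between arrays) of every probe of the 9 genes on the control array and hairpins 1 to 3, with filled symbols well above background, open symbols not, and bars for the scanner's error of the spot. Alpl, Dlx3, Msx2, Tnfrsf11b and the brightest Runx2 probe are filled on all 4 arrays, Ibsp and Dlx5 are open on all 4, and Smpd3 is open on hairpin 1 and highest on hairpin 2 (106).

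Among the regulators, Runx2 was measured by 3 probes. The brightest, which stands for the gene in the fit and carries the accession of a noncoding Runx2 transcript, read 329 ± 33.2 with the control hairpin. It read 447 ± 45.0 on hairpin 1, 318 ± 32.2 on hairpin 2 and 405 ± 40.6 on hairpin 3. Hairpins 1 and 3 thus lay above the control and hairpin 2 lay with it. The differences were 0.54, -0.02 and 0.33, each with a combined spot error of 0.21, and the mean was 0.28 ± 0.28. It was 0.15 without hairpin 1 and 0.43 without hairpin 2. A dimmer probe, annotated to a coding Runx2 transcript, had signals of 57.0 ± 7.48 on the control, 71.7 ± 8.87 on hairpin 1, 58.4 ± 7.56 on hairpin 2 and 50.6 ± 6.17 on hairpin 3. Its differences were 0.42, 0.06 and -0.14, with a mean of 0.11 ± 0.29. Both probes were highest on hairpin 1, by 1.45-fold and 1.34-fold over the control, and they differed in sign on hairpins 2 and 3. The remaining probe was below background on all 4 arrays. By limma the adjusted p of Runx2 was 0.967.

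**Figure D2:**
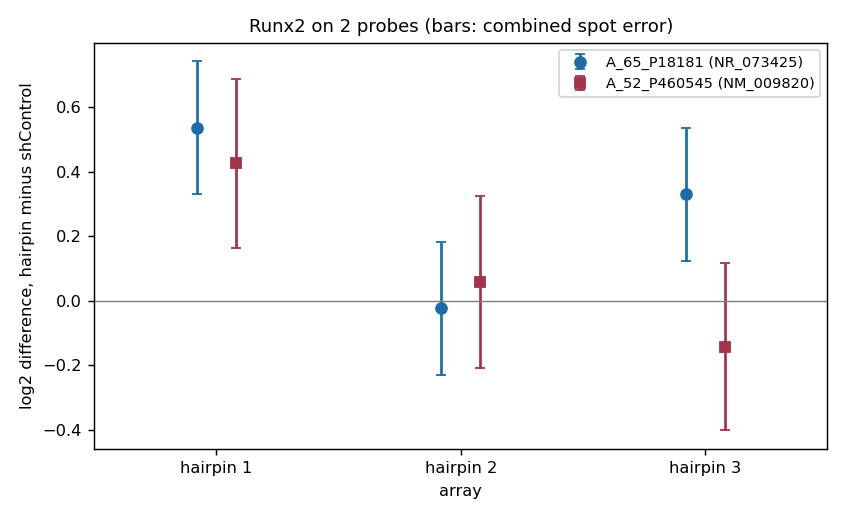
Log2 difference of each hairpin from the control (vertical axis) for the 2 Runx2 probes that were above background, with bars for the combined spot error of the pair of arrays. The probes lie together on hairpins 1 and 2 and apart on hairpin 3, at 0.33 and -0.14.

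Dlx3 was well above background on every array. Its signal was 2504 ± 250.4 on the control, 2139 ± 214.0 on hairpin 1, 1895 ± 189.6 on hairpin 2 and 1717 ± 171.8 on hairpin 3. The control was the highest of the 4 arrays. The differences were -0.13, -0.38 and -0.51, with a combined spot error of 0.20 each, so that hairpin 1 lay within that error of the control and hairpins 2 and 3 did not. The mean was -0.34 ± 0.19 (limma adjusted p = 0.964), and 24.6% of all genes kept were also lower on all 3 hairpins. In all 10 alternative processings the difference was negative, from -0.45 to -0.26.

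Msx2, which encodes a homeodomain repressor, differed little. Its signal was 155 ± 16.3 on the control, 151 ± 16.0 on hairpin 1, 186 ± 19.3 on hairpin 2 and 158 ± 16.3 on hairpin 3. The scaled differences were 0.05, 0.28 and 0.06, with a mean of 0.13 ± 0.13 (limma adjusted p = 0.972), and hairpin 2 alone exceeded the combined spot error of 0.21. Without hairpin 2 the mean was 0.05. Of all genes kept, 27.6% were higher on all 3 hairpins. With the values of the deposited series table, or with normexp background correction and quantile normalization, Msx2 no longer had one sign. Dlx5 was not well above background on any array, with signals of 11.3, 16.6, 16.9 and 11.5 on the control and hairpins 1 to 3 and spot errors of 4.21 to 5.98, so no fold is given.

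Among the matrix and mineralization genes, Alpl was well above background on all 4 arrays. Its signal was 690 ± 69.1 on the control, 624 ± 62.6 on hairpin 1, 929 ± 93.0 on hairpin 2 and 613 ± 61.4 on hairpin 3. Hairpin 2 stood above the other 3 arrays, which lay within the spot error of one another. The differences were -0.05, 0.45 and -0.14, with a mean of 0.09 ± 0.32 (limma adjusted p = 0.991). The mean was 0.16 without hairpin 1, -0.10 without hairpin 2 and 0.20 without hairpin 3. Hairpin 2 was also 1.42-fold above hairpin 1 and 1.51-fold above hairpin 3.

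Ibsp gave no signal above background on either of its probes. The first read 4.25, 4.59, 4.23 and 3.25 on the control and hairpins 1 to 3, the other 3.92, 4.26, 3.93 and 3.10. The spot error was about as large as each of these signals, so neither a level nor a fold can be read from them. The later markers Sp7 and Bglap were likewise not well above background on any array, with signals of 5.24 to 8.21 and 4.02 to 14.1. Of the copies beside Bglap, which are alike in sequence and may share its signal, Bglap2 was above background on the control and hairpin 2 only, with signals of 21.1, 21.8, 23.0 and 13.7. Bglap3 was above background on all 4 arrays, with signals of 59.0, 46.9, 135 and 34.3, and was highest on hairpin 2. Both were named after their values were seen.

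Smpd3 had the widest spread of the 9 genes. Its signal was 30.7 ± 5.34 on the control, 14.8 ± 4.95 on hairpin 1, where it was not well above background, 106 ± 11.4 on hairpin 2 and 59.0 ± 6.81 on hairpin 3. The hairpins thus lay on both sides of the control, with hairpins 2 and 3 above it. On hairpin 2 it was 3.50-fold and on hairpin 3 1.96-fold higher than the control, log2 differences of 1.81 and 0.97 with combined spot errors of 0.30. On hairpin 1 it was at least 1.38-fold lower, against the lowest signal called above background there, which is not this probe's own limit. Of all genes kept, 1.88% were at least 2-fold higher on hairpin 2. With the hairpin 1 signal taken as it stands, the mean was 0.61 ± 1.42 (limma adjusted p = 0.974), and without hairpin 1 it was 1.39 (adjusted p = 0.746). Without hairpin 2 it was 0.01.

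Among the receptors, Pth1r was dim but above background on all 4 arrays. Its signal was 30.4 ± 5.70 on the control, 38.2 ± 6.41 on hairpin 1, 24.4 ± 5.34 on hairpin 2 and 26.3 ± 4.55 on hairpin 3. Hairpin 1 was the highest array, and the other 2 hairpins lay below the control by less than the spot error. The differences were 0.42, -0.29 and -0.18, with combined spot errors of 0.36, 0.42 and 0.37, and the mean was -0.02 ± 0.38 (limma adjusted p = 0.998). Its sign turned with quantile normalization and without hairpin 2 or 3.

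Tnfrsf11b stood apart on 1 hairpin. Its signal was 181 ± 18.6 on the control, 191 ± 19.6 on hairpin 1, 75.4 ± 8.60 on hairpin 2 and 175 ± 17.8 on hairpin 3. The control and hairpins 1 and 3 lay within the spot error of one another, and hairpin 2 was far below them. On hairpin 2 the osteoprotegerin signal was 2.36-fold lower than on the control, a log2 difference of -1.24 with a combined spot error of 0.22, and 4.10% of all genes kept were at least 2-fold lower there. The differences on hairpins 1 and 3 were 0.17 and -0.02. The mean over hairpins was -0.36 ± 0.76 (limma adjusted p = 0.974), and it was -0.63 without hairpin 1 and 0.07 without hairpin 2. Hairpin 2 was also the hairpin with the highest Islr signal; a relation was not tested.

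**Figure D3:**
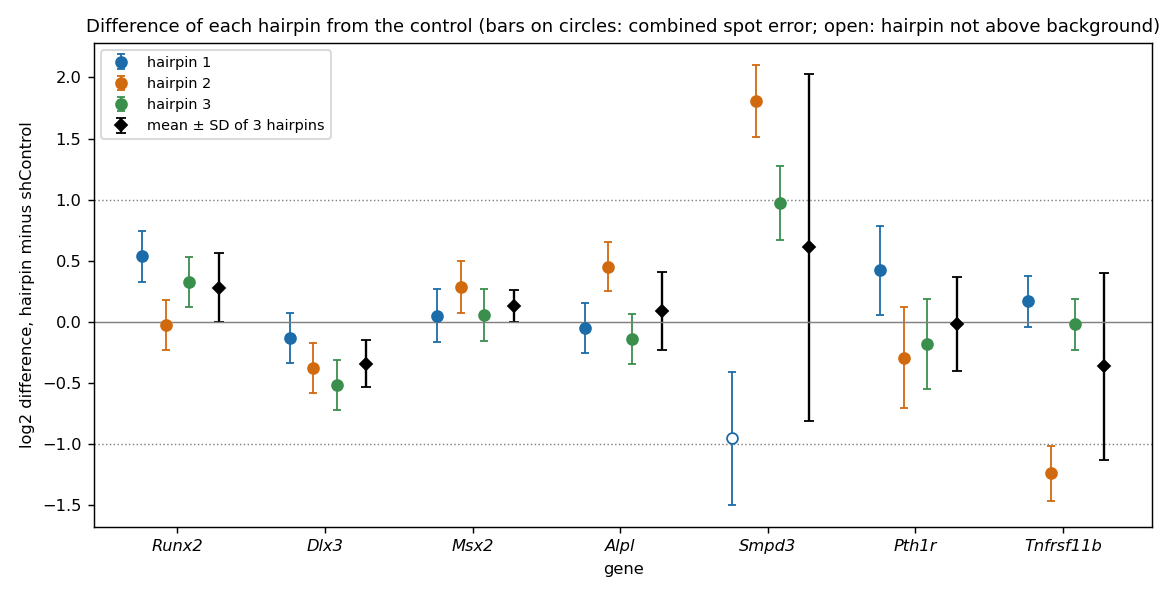
Log2 difference from the control (vertical axis) for the 7 genes kept, with circles for hairpins 1 to 3 (open where not above background) and their combined spot error, and diamonds for the mean ± SD over the 3 hairpins. Smpd3 reaches 1.81 on hairpin 2, with its hairpin 1 signal below background, Tnfrsf11b spans 1.41 between hairpins, and Dlx3 lies below 0 on each; dotted lines mark 2-fold.

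The hairpins were also compared with one another. A difference of at least 2-fold between any pair of hairpins occurred in 11.8% of all genes kept and in 2 of the 7, Smpd3 and Tnfrsf11b. Hairpin 2 was the extreme hairpin for both, highest for Smpd3 and lowest for Tnfrsf11b. For Tnfrsf11b it was 2.65-fold below hairpin 1 and 2.33-fold below hairpin 3. For Smpd3 it was 1.78-fold above hairpin 3. The other 5 genes spanned 0.23 (Msx2) to 0.71 (Pth1r) between their lowest and highest hairpin. The profile of Tnfrsf11b over the 3 hairpins was matched most closely, among 12715 other genes above background on all 4 arrays, by Egfr, Ppp1r3c and Hdac9. Their root mean square distances from it were 0.08, 0.08 and 0.11 on the log2 scale. Egfr, the epidermal growth factor receptor gene, was at 0.20, -1.25 and -0.15 on hairpins 1 to 3. With 4 arrays and that many genes, near matches of this kind are a description only.

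Related genes were counted in 5 lists, in which members of the 9 are included. The lists were chosen with earlier results of these data known, so their counts are a description only. By limma 0 genes of these lists passed over all genes, and Col24a1 and Sema3a had an unadjusted p under 0.05. Of the 9 Dlx and Msx genes, 7 were kept, 2 of them higher and 3 lower on all 3 hairpins, beside 27.6% and 24.6% of all genes. Msx1, a close relative of Msx2, had a signal of 180 on the control and 197, 260 and 256 on hairpins 1 to 3, with a mean difference of 0.44 ± 0.19. Dlx4 was at -0.42 ± 0.24, below the control on each hairpin. Dlx1 was at -0.15, 1.09 and 0.72, so that its highest hairpin was hairpin 2, as for Smpd3. The median difference of the list was 0.13.

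Other transcription regulators of the lineage numbered 25, of which 23 were kept, with 3 higher and 8 lower on all 3 hairpins, beside 27.6% and 24.6% of all genes. Their median was -0.11. Zfp521, which encodes a zinc finger protein that restrains Runx2, had a signal of 3405 on the control and 2637, 1609 and 1805 on hairpins 1 to 3. All 3 hairpins were below the control, and the mean difference was -0.74 ± 0.41 (limma adjusted p = 0.964). Trps1, a GATA-type repressor gene, was at -0.44 ± 0.25 and below the control on each hairpin. Atf4, the gene of a stress-responsive factor that also acts in osteoblasts, was at 0.46 ± 0.28 and above it on each. Twist2, which encodes a basic helix-loop-helix repressor, was at 1.00, -0.10 and 0.54. Cbfb, the gene of the partner subunit of Runx2, was at -0.11, -0.32 and -0.30. It was named after its values were seen.

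Bone matrix and late osteoblast genes numbered 24, of which 18 were kept. On all 3 hairpins 0 were higher and 8 were lower, beside 27.6% and 24.6% of all genes, and the median was -0.21, beside 0.01 over all genes kept. Since earlier results were known when the list was chosen, these values describe the list and do not test it. The 3 differences of each gene also share 1 control array. Col24a1, the gene of a fibrillar collagen found in bone, had a signal of 162 on the control and 56.3, 48.7 and 38.6 on hairpins 1 to 3. At least 2-fold lower on all 3 hairpins were 1.69% of all genes kept, among them genes above background on the control array alone. Col24a1 was above background on all 4 arrays and met that 2-fold rule, at -1.72 ± 0.30. Its limma adjusted p was 0.344 (unadjusted p = 0.00306). Omd, the gene of the bone proteoglycan osteomodulin, was at -1.60, -1.10 and -0.58, from a control signal of 3885. Mgp, the gene of the calcification inhibitor matrix Gla protein, was at -0.20, -1.23 and -1.12. Postn, the periostin gene, went both ways, at -1.09, 0.53 and -1.65. The osteopontin gene Spp1, named after its values were seen, was at 1.64, -0.24 and -0.32.

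Mineral and phosphate handling genes numbered 18, of which 13 were kept, with 2 higher and 1 lower on all 3 hairpins (27.6% and 24.6% of all genes) and a median of -0.02. Enpp1, which encodes an enzyme that makes the pyrophosphate that Alpl removes, was at 0.12, -1.07 and -0.88. Ank, the gene of a pyrophosphate transporter, was at -0.02, -0.79 and -0.66. Both were lower on hairpins 2 and 3 and near the control on hairpin 1. Their means of -0.61 ± 0.64 and -0.49 ± 0.41 were about the size of their spread. Anxa5, an annexin gene, was at 0.25 ± 0.14, above the control on each hairpin.

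Genes of parathyroid hormone signalling and osteoclast coupling numbered 24, of which 21 were kept, with 5 higher and 5 lower on all 3 hairpins (27.6% and 24.6% of all genes) and a median of -0.005. Sema3a, which encodes a secreted semaphorin that osteoblasts make, had a signal of 4215 on the control and 2561, 1358 and 1441 on hairpins 1 to 3. All 3 hairpins were below the control, at -1.25 ± 0.54 (limma adjusted p = 0.964, unadjusted p = 0.0464). Nr4a1 and Nr4a2, nuclear receptor genes induced by parathyroid hormone, were at 0.67 ± 0.46 and 0.82 ± 0.38, above the control on each hairpin. Pthlh, the gene of a hormone that binds the same receptor, had a signal of 28.6 on the control and was above background there and on hairpin 3 but not on hairpins 1 and 2.

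**Figure D4:**
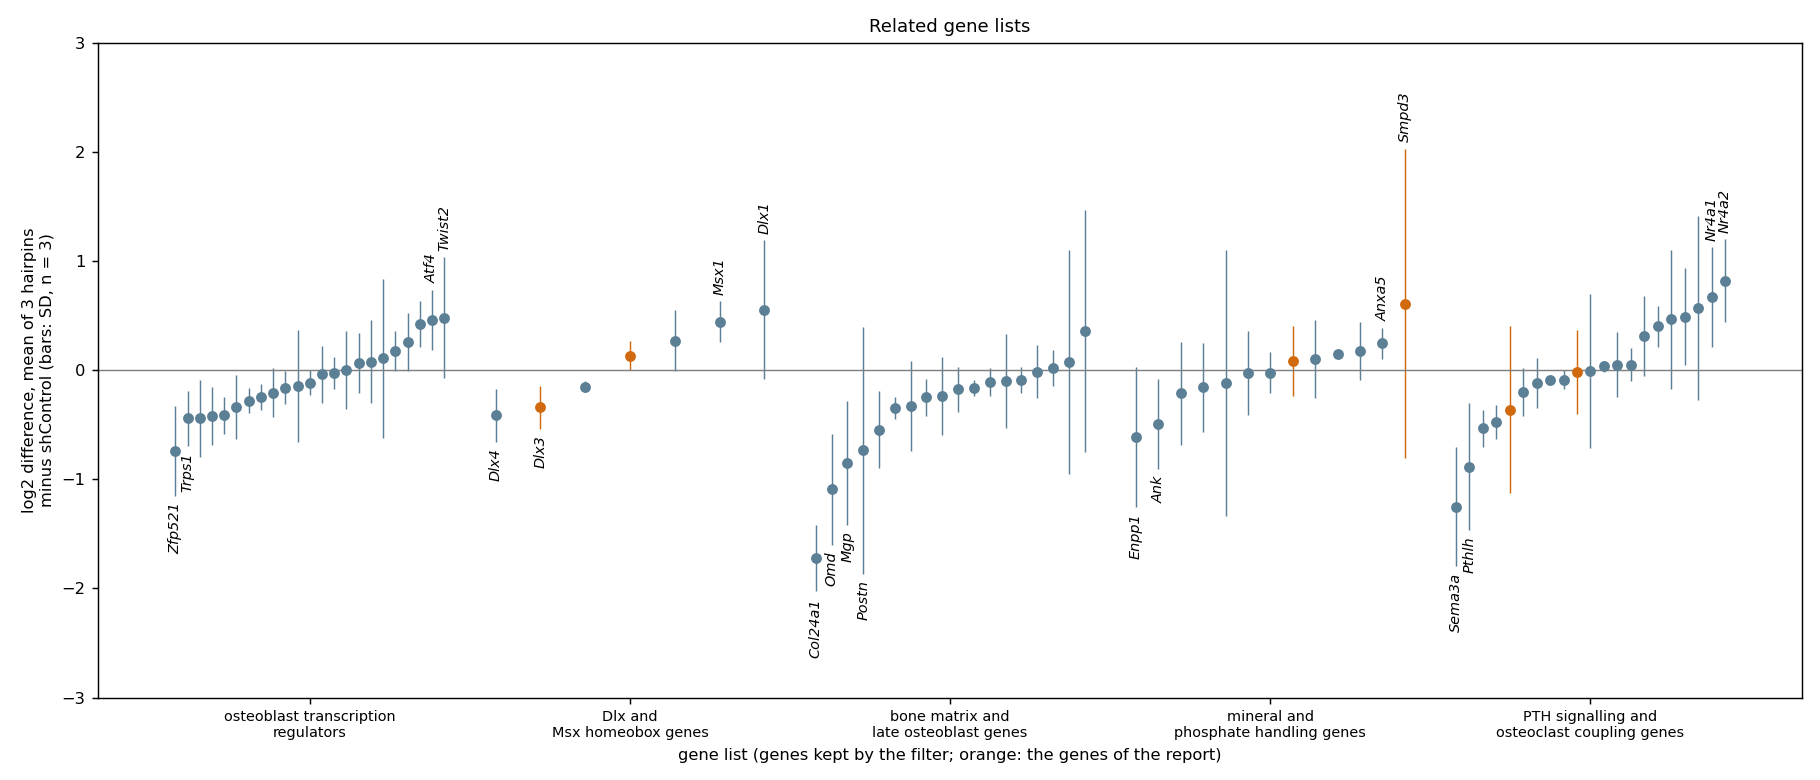
Log2 difference from the control (vertical axis, mean of the 3 hairpins with SD as bars, n = 3) for each kept gene of the 5 related lists, ordered by value within a list, with members of the 9 in orange and the genes of the naming rule labelled. Col24a1 is lowest at -1.72 and Smpd3 has the widest bar among the members.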

How the data were processed

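Per the file headers, the authors scanned 4 arrays on 1 slide with Agilent's Feature Extraction software (version 11.5.1.1, protocol GE1_1105_Oct12, design 028005, probe layout on mm9). The deposited values are processed signal intensity, background-subtracted and detrended within an array, with 1 spot for each probe of the 9 genes. The deposited series table holds that intensity times 1 unexplained factor per array (2.02 to 2.25). Control spots were left out, log2 signals of a probe's features were averaged, and each array's log2 75th percentile was subtracted. RefSeq accessions named 28026 of 55681 probes. The kept probe of highest mean signal stood for a gene. The test was limma's (version 3.58.1, R 4.3.3; lmFit and eBayes, two-sided, Benjamini-Hochberg, threshold 0.05), 3 hairpin arrays against 1 control array, which is assumed to vary like the hairpins. The combined spot error is the root sum of squares of both spots' relative errors, on the log2 scale.

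Named are the 9 genes, Islr, Sp7 and Bglap. From each related list, the named genes are those that passed limma's test, those at least 2-fold on all 3 hairpins and the 4 of largest mean difference. The 3 genes nearest in profile were named for a member above background on all 4 arrays that spans at least 1 between hairpins. The members and lists were chosen with earlier results of these data known. Genome positions are given for the 3 promoter windows only, on the RefSeq build, and not for genes or probes, since the arrays use another build. Alternatives were quantile normalization, median centring, normexp (offset 50, on median spot signals) with quantile normalization, the series table, no filter, a filter on all 4 arrays, the mean over probes, each hairpin left out, a threshold of 0.10 and a 1.5-fold rule. The number of arrays limits the precision.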

Additional observations from a re-analysis of the deposited data

How the results depend on the processing

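Over the alternatives, none of the kept genes among the 9 passed limma's test (lowest adjusted p = 0.746), and of 69 differences recomputed for them 64 kept their sign. The mean difference of Pth1r turned to 0.0128 with quantile normalization, and with 1 hairpin left out ranged from -0.24 to 0.12. That of Alpl ranged from -0.10 to 0.20 and that of Tnfrsf11b from -0.63 to 0.0748, each turning without hairpin 2. Runx2 gained one sign with quantile normalization, normexp or the mean over probes. The count of members of one sign was 1 with the series table values (Dlx3) and 2 to 5 with 1 hairpin left out, where the sign of only 2 hairpins is asked. In each alternative, the 1.5-fold rule and each hairpin left out included, 0 members met the rule of size on all hairpins used. The limma count over all genes (47) was 75 with quantile normalization and 83 at a threshold of 0.10. It was 0 with normexp, with no filter, with a filter on all 4 arrays and with any 1 hairpin left out (0 to 0), where an unadjusted p under 0.05 was met by 674, 854, 467 and 592 to 861 genes. The cause was not tested. No paired analysis was possible because the control array is 1 sample with no number in the labels. Dim probes (Ibsp, Dlx5, Pth1r, Smpd3) are limited by signal over background.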

Other observations

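Osteoprotegerin acts by holding RANKL, so the change of the RANKL gene Tnfsf11 was set beside that of Tnfrsf11b, a pair chosen after its values were seen. Tnfsf11 had a signal of 61.6 on the control and 168, 67.5 and 60.8 on hairpins 1 to 3, differences of 1.54, 0.16 and 0.01. The change of Tnfsf11 minus that of Tnfrsf11b was 1.37, 1.40 and 0.03 in that order, with a mean of 0.93 ± 0.78 (n = 3). Neither gene passed limma's test, and the ratio alone shows unequal change and not which member changed. On hairpin 1 Tnfsf11 differed more from the control, at 1.54 against 0.17 for Tnfrsf11b. On hairpin 2 Tnfrsf11b differed more, at -1.24 against 0.16 for Tnfsf11.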
